A study of Homo sapiens with 20 samples.

Results

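NR4A1 (Nur77), NR4A2 (Nurr1) and NR4A3 (NOR1) form a family of orphan nuclear receptors, and they are 3 of the 17687 genes with a single symbol on the arrays. They were taken by symbol, each had 1 probe set (TC1200007653.hg.1, TC0200014672.hg.1 and TC0900008219.hg.1), and they were chosen because NR4A1 and NR4A2 were higher with QC6352 mainly in Rh30. Their values in the QC6352 and DMSO arrays are therefore given as a description without a test. The tests cover the knockdown comparisons and the genes around the family.

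The 20 Affymetrix Clariom S human arrays measured RNA of 2 rhabdomyosarcoma cell lines, Rh30 and Rh41, and the values are log2 signals. By title, Rh30 cells carried shRNA against KDM4B (n = 2) or control shRNA (n = 2) for 72 h, or siRNA against KDM4C (n = 2) or control siRNA (n = 2) for 72 h. Rh30 cells also received 200 nM QC6352, an inhibitor of the KDM4 histone demethylases, or the vehicle DMSO for 48 h (n = 3 each), and Rh41 cells received the same (n = 3 each). The labels name no untreated cells, no rescue and no further hairpin or siRNA, so an effect of a knockdown through its target and another effect of the same reagent cannot be told apart.

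NR4A receptors bind DNA as monomers at the NBRE element or as dimers, and NR4A1 and NR4A2 also pair with retinoid X receptors. Their ligand pocket is filled by bulky side chains, so their activity is set largely by how much of the protein a cell makes. The genes are immediate early genes, switched on within minutes by cyclic AMP, calcium, growth factors or stress through CREB, MEF2 and SRF, and in skeletal muscle exercise and beta-adrenergic signals raise them. In rhabdomyosarcoma lines NR4A1 has been studied as a drug target.

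The promoter windows are shown because all 3 genes were higher in the same arrays and because CREB sites are the best known inducible element of the family. RefSeq promoter entries (GRCh38.p14) matched 2 of the 3 members, NR4A3 with 1 transcript start and NR4A1 with 2. Each line gives the 250 bases before the start on the plus strand, with TGACG (the core of the CREB site) and GGGCGG (the GC box), or their reverse complements, in capitals.
NR4A3, chr9:99821635-99821884: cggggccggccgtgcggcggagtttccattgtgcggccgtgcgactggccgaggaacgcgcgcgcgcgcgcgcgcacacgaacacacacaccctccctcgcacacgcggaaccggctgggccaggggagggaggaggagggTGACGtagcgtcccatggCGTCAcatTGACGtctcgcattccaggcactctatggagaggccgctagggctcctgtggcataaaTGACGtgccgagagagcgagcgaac
NR4A1, chr12:52037465-52037714: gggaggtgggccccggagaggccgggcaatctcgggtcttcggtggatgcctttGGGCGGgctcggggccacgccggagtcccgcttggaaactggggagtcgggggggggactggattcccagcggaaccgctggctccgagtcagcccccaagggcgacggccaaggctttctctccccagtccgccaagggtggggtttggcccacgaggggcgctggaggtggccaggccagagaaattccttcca
The NR4A3 window held 4 such CREB cores, which began 109, 91, 83 and 25 bases before the start, 3 of them on the plus strand and the one at 91 on the minus strand. This core was found in 21.2% of the 35116 promoter windows of the same length. The NR4A1 window shown held 1 GC box 196 bases before the start, a motif of 42.6% of all windows, and the other NR4A1 window (chr12:52022582-52022831) held 0 of the motifs searched. The full site TGACGTCA (1.65% of windows), the NBRE element AAAGGTCA (1.05%), the CArG box (1.16%) and TATAAA (10.7%) were searched on both strands and not found in any of these windows. TGACGTCA contains the core. Starts without an entry, such as that of NR4A2, were not searched, so these windows may not cover every promoter of NR4A1 or NR4A3. A match describes letters and not binding, and no binding or methylation was measured on these arrays.

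For 10 of the Rh30 arrays the labels disagree among themselves, which touches every value of the siRNA, QC6352 and DMSO groups of Rh30. Their titles, source names and treatments name one group, but the sample name in the description gives another. The groups here follow the titles, apart from KDM4C siRNA replicate 2, whose title calls it shRNA and which was placed by its source name. By sample name the arrays titled QC6352 replicates 1, 2 and 3 in Rh30 are siControl replicate 2 and siKDM4C replicates 1 and 2. The 4 hairpin arrays and the 6 Rh41 arrays carry no such conflict. KDM4B was at 6.01 and 6.15 log2 with its hairpin and at 6.74 and 7.30 with the control hairpin, a difference of -0.94 (SE 0.23, limma adjusted p = 0.012). KDM4C was at 6.25 and 6.32 log2 with its siRNA and at 6.48 and 6.54 with the control siRNA, a difference of -0.23 (SE 0.19, limma adjusted p = 0.651). Array medians were 6.72 to 6.75 log2 in the arrays titled siRNA, 6.95 to 6.99 in the other Rh30 arrays and 7.22 to 7.25 in Rh41. The muscle markers DES (lowest array 11.12 log2), CHRNA1 (11.65), MYOG (9.03) and FGFR4 (10.54) were high in both lines, MYF5 had a median of 4.87 in Rh41, near background, and the blood marker PTPRC and the epithelial marker EPCAM reached at most 4.22 and 4.43. Other markers of those types were higher, with KRT19 at 8.37 to 8.59 in Rh41 and 6.16 to 6.71 in Rh30, KRT5 at up to 6.84 and CD14 at up to 6.95. The fibroblast marker COL1A2 was at 7.98 to 8.66 in Rh30 and 9.05 to 9.23 in Rh41, while LUM reached at most 4.16. Of the endothelial markers, PECAM1 reached 7.72 and TEK at most 4.43. The PAX3-FOXO1 fusion for which both lines are known has no probe set of its own that was used here.

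By title, QC6352 went with a higher level of all 3 NR4A genes in Rh30. NR4A1, the best studied member in muscle and muscle tumours, was at 10.67, 9.83 and 10.54 log2 in Rh30 cells with QC6352 and at 7.08, 7.22 and 7.17 in Rh30 cells with DMSO. The groups did not overlap. Their means differed by 3.19 log2, which is 9.13-fold on the signal scale (10.35 ± 0.45 with QC6352 and 7.16 ± 0.08 with DMSO, SD, n = 3 each). In bulk RNA a change in the share of expressing cells and a change in RNA per cell cannot be told apart.

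NR4A3 was at 9.04, 8.38 and 9.08 log2 in Rh30 cells with QC6352 and at 5.67, 5.80 and 5.85 with DMSO. Its means differed by 3.06 log2, or 8.34-fold (8.84 ± 0.40 with QC6352 and 5.78 ± 0.09 with DMSO, SD, n = 3 each). NR4A3 was not named among the genes the family was picked on, but its values come from the same arrays and are given without a test. NR4A2, which dopamine neurons need for their development, was at 7.86, 7.35 and 8.24 log2 in Rh30 cells with QC6352 and at 4.82, 4.81 and 5.20 with DMSO. The difference was 2.87 log2, or 7.32-fold (7.82 ± 0.44 with QC6352 and 4.94 ± 0.22 with DMSO, SD, n = 3 each). Its DMSO level in Rh30 lay 0.98 log2 above the median of the background control probe sets and below the highest of them. The DMSO levels of NR4A3 and NR4A1 in Rh30 lay 1.82 and 3.2 log2 above that median and also below the highest. The 3 folds and the ranks given next thus hold for the signal and not for the amount of RNA.

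All 3 members were thus higher without overlap in Rh30, as were 25% of all genes in this comparison, while 19.5% were lower without overlap. By size of the rise they ranked 5 (NR4A1), 8 (NR4A3) and 11 (NR4A2) of 17687 genes, and 0.317% of genes differed by at least 2 log2 upward. These ranks describe the values the family was picked on. In each member QC6352 replicate 2 was the lowest of the 3 arrays. Among the 56 genes with a rise of at least 2 log2 that array was the lowest of the 3 in 64.3%, against 37.6% of the 3517 genes called higher. Without it the difference was 3.45 for NR4A1, 3.10 for NR4A2 and 3.29 for NR4A3. The summed signal of the 8 muscle tumour markers was 13.29 to 13.35 log2 with QC6352 and 13.92 to 13.95 with DMSO in the same Rh30 arrays, and that of 4 fibroblast markers 9.08 to 9.36 with QC6352 and 8.78 to 8.93 with DMSO, with LUM near background. With the hairpins the muscle sum was 13.62 to 13.67 for KDM4B and 13.85 to 13.94 for the control. The part of these sums in the NR4A values was not tested.

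**Figure D1:**
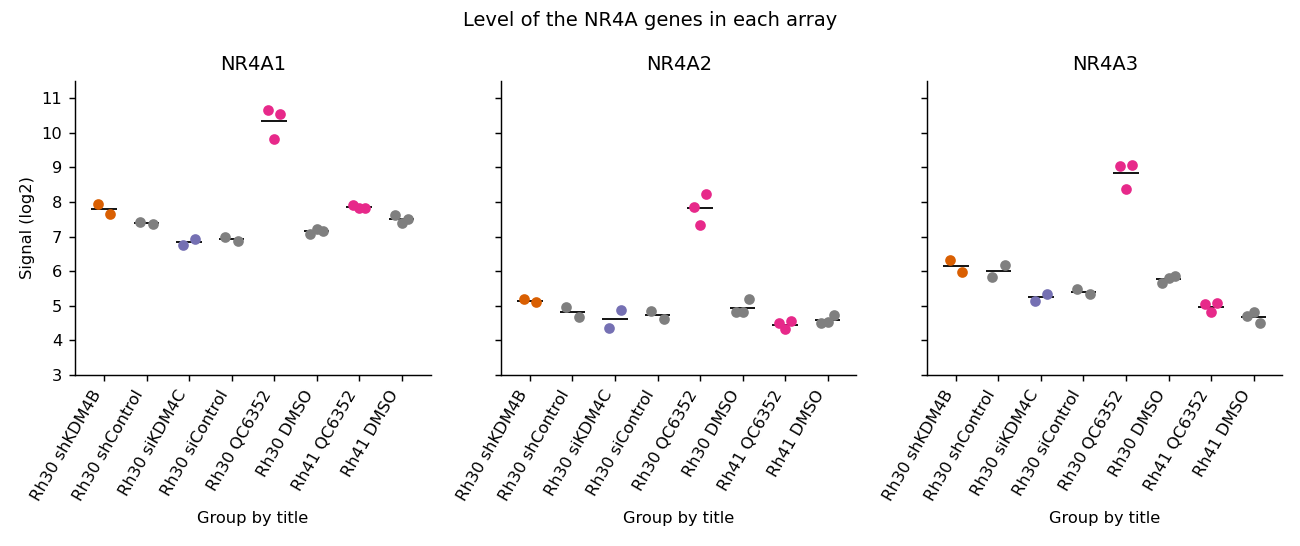
Log2 signal of NR4A1, NR4A2 and NR4A3 (vertical axis) in each array (points) of the 8 groups by title (horizontal axis), with the group mean as a line. In Rh30 the 3 QC6352 arrays lie at 9.83 to 10.67 (NR4A1), 7.35 to 8.24 (NR4A2) and 8.38 to 9.08 (NR4A3), above the other 17 arrays of each panel.

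In Rh41 the same dose and time left the family close to its DMSO level. NR4A1 was at 7.92, 7.84 and 7.82 log2 with QC6352 and at 7.63, 7.40 and 7.52 with DMSO, a difference of 0.35 log2 without overlap (7.86 ± 0.05 with QC6352 and 7.52 ± 0.12 with DMSO, SD, n = 3 each). The background of genes higher without overlap in Rh41 was 22.9%. NR4A3 was at 5.04, 4.83 and 5.09 log2 with QC6352 and at 4.72, 4.83 and 4.50 with DMSO. These groups touched at 4.83, with means 0.30 log2 apart. NR4A2 was at 4.50, 4.32 and 4.57 log2 with QC6352 and at 4.49, 4.54 and 4.74 with DMSO. These groups overlapped, and the difference of the means was -0.13. The response in Rh41 minus that in Rh30 was -2.84 log2 for NR4A1, -3.00 for NR4A2 and -2.76 for NR4A3. The family was picked on this difference as well, so it has no test.

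The resting levels of the members did not follow one order between the lines. With DMSO, NR4A3 differed by -1.09 log2 in Rh41 minus Rh30 (4.68 ± 0.17 in Rh41 and 5.78 ± 0.09 in Rh30, SD, n = 3 each). NR4A2 differed by -0.35 log2 and NR4A1 by 0.36 log2 in the same direction of subtraction. None of the 3 pairs of groups overlapped. In this comparison 45.5% of all genes were higher and 19.7% lower without overlap, and limma called 57.6% of them, 40.7% higher. The median of all genes was 0.191 log2 higher in Rh41 as deposited and -0.068 with each array centred on its median. With that centring NR4A1 differed by 0.10, NR4A2 by -0.61 and NR4A3 by -1.35 log2. Rh41 DMSO levels lay 0.73 log2 (NR4A3) and 0.64 log2 (NR4A2) above the median of the background control probe sets, and those of NR4A1 3.56 above it. The base composition of the NR4A probes is not known here, so background may be higher or lower for them.

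Across the 8 groups each gene had one level far above the rest. For NR4A1 the order ran from QC6352 in Rh30 (10.35) to QC6352 in Rh41 (7.86), the KDM4B hairpin (7.81), DMSO in Rh41 (7.52), the control hairpin (7.39), DMSO in Rh30 (7.16), control siRNA (6.94) and KDM4C siRNA (6.85). QC6352 in Rh41 overlapped the KDM4B hairpin, DMSO in Rh41 overlapped the control hairpin, and the siRNA groups overlapped each other. NR4A3 had the order QC6352 (8.84), KDM4B hairpin (6.16), control hairpin (6.0), DMSO (5.78), control siRNA (5.41) and KDM4C siRNA (5.25) in Rh30, followed by QC6352 (4.98) and DMSO (4.68) in Rh41. The hairpin groups overlapped each other, the control hairpin overlapped DMSO in Rh30 while the KDM4B hairpin lay above it, the siRNA groups overlapped each other, and so did the Rh41 groups. For NR4A2 every neighbouring pair of groups below QC6352 in Rh30 overlapped, from the KDM4B hairpin (5.14 ± 0.06, SD, n = 2) down to QC6352 in Rh41 (4.46 ± 0.13, SD, n = 3).

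The 3 Rh30 arrays titled QC6352 stood above the other 17 arrays whichever label is used. The gap between the lowest of them and the highest other array was 1.88 log2 for NR4A1, 2.15 for NR4A2 and 2.06 for NR4A3. Against the control hairpin arrays, whose labels do not conflict, they differed by 2.95, 2.98 and 2.84 log2, although that comparison also sets 48 h against 72 h. With groups by sample name, QC6352 minus DMSO in Rh30 was 0.19 log2 for NR4A1, 0.23 for NR4A2 and 0.28 for NR4A3, since the 3 arrays then belong to siRNA groups.

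Knockdown of KDM4B asks whether a lower level of 1 target of the inhibitor goes with a change of the family. Among the other KDM4 genes, KDM4D was higher with the hairpin (0.94 ± 0.28 SE, limma adjusted p = 0.0343). Its level with the control hairpin lay 0.55 log2 above the background median. KDM4A (0.02) and KDM4C (-0.27) did not pass the threshold. NR4A1 was at 7.95 and 7.66 log2 with the KDM4B hairpin and at 7.42 and 7.37 with the control hairpin. NR4A2 was at 5.19 and 5.10 with the KDM4B hairpin and at 4.97 and 4.69 with the control. NR4A3 was at 6.32 and 5.99 with the KDM4B hairpin and at 5.83 and 6.17 with the control. The arrays of NR4A1 and NR4A2 were higher without overlap, as were those of 28.7% of all genes, and those of NR4A3 overlapped.

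None of the 3 passed the threshold with limma, where 11.6% of genes were called. NR4A1 differed by 0.41 log2 (SE 0.19, 95% interval 0.01 to 0.81, unadjusted p = 0.0431, limma adjusted p = 0.196, n = 2 and 2). NR4A2 differed by 0.31 (interval -0.16 to 0.78, limma adjusted p = 0.464) and NR4A3 by 0.16 (interval -0.26 to 0.57, limma adjusted p = 0.725). The sign for NR4A3 turned without control hairpin replicate 1 or without KDM4B hairpin replicate 1 (-0.01 each). The intervals of both knockdown comparisons rest on a spread pooled over all arrays. That includes the QC6352 arrays of Rh30, which the family was picked on and which had the largest SD of any group for each member. With the hairpin and control hairpin arrays fitted alone, the SEs for NR4A1, NR4A2 and NR4A3 were 0.14, 0.14 and 0.18 (limma adjusted p = 0.168, 0.277 and 0.672). By sample name the SEs of the same differences were 0.61, 0.49 and 0.57. The gap between the hairpin and QC6352 comparisons was not tested, because the family was picked on the QC6352 values.

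**Figure D2:**
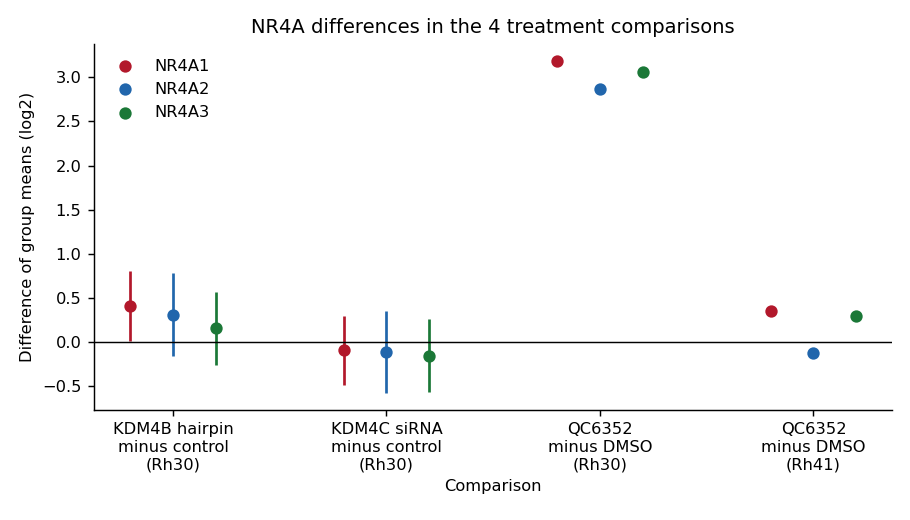
Difference of group means in log2 units (vertical axis) for each NR4A gene (colour) in the 4 treatment comparisons by title (horizontal axis). Lines are 95% limma intervals, drawn for the 2 knockdown comparisons that were tested; the points for QC6352 lie at 2.87 to 3.19 in Rh30 and at -0.13 to 0.35 in Rh41.

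With siRNA against KDM4C the family was level with its control. NR4A1 was at 6.77 and 6.92 log2 with KDM4C siRNA and at 7.0 and 6.87 with control siRNA. NR4A2 was at 4.36 and 4.88 with KDM4C siRNA and at 4.85 and 4.62 with control siRNA. NR4A3 was at 5.15 and 5.35 with KDM4C siRNA and at 5.49 and 5.33 with control siRNA. All 3 pairs of groups overlapped. Over all genes 22% were higher and 16.5% lower without overlap, and the rest overlapped as well. The differences were -0.09 (interval -0.49 to 0.30, limma adjusted p = 0.896), -0.11 (-0.58 to 0.35, 0.889) and -0.16 log2 (-0.57 to 0.26, 0.799), in a comparison where 0.458% of genes were called. KDM4C itself did not pass the threshold here, and these 4 arrays are among those with contradictory labels. By sample name the differences were 1.27, 1.27 and 1.28 log2 (SE 0.61, 0.49 and 0.57, limma adjusted p = 0.405, 0.321 and 0.372, n = 2 and 2), since 1 control and both knockdown arrays are then those titled QC6352.

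Apart from the drug response, the members varied together within Rh30. Over the 11 Rh30 arrays without QC6352, NR4A1 and NR4A3 had a Pearson r of 0.921 (Spearman rho 0.936), NR4A1 and NR4A2 of 0.708 (0.627) and NR4A2 and NR4A3 of 0.673 (0.618). With each array centred on its median r was 0.871, 0.531 and 0.414. The arrays share treatment groups, and the siRNA arrays have lower medians, so these values are descriptions. Over the 17 arrays without QC6352 in Rh30, r of NR4A1 with NR4A3 was -0.0813 and with NR4A2 -0.0297. With DMSO, Rh41 had higher NR4A1 and lower NR4A3 than Rh30. For NR4A2 and NR4A3 r was 0.741 over these 17.

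**Figure D3:**
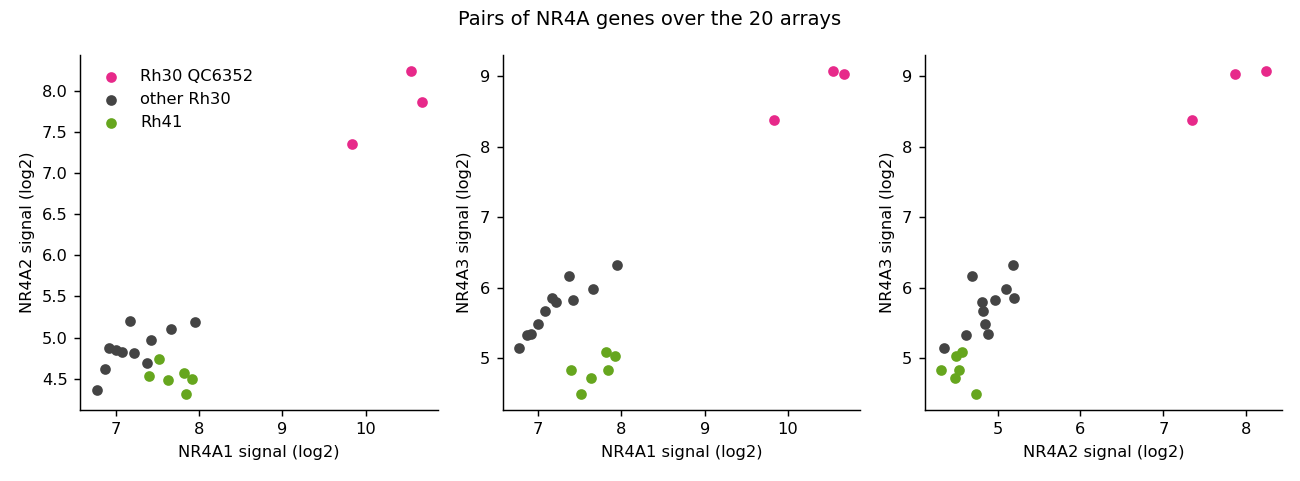
Log2 signals of each pair of NR4A genes over the 20 arrays, with Rh30 QC6352, other Rh30 and Rh41 arrays in separate colours. The 3 Rh30 QC6352 arrays lie apart in every panel; in the NR4A1 and NR4A3 panel the 11 other Rh30 arrays rise together (r = 0.921) and the Rh41 arrays have lower NR4A3.

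The genes most like each member over the 20 arrays were named by Pearson r, a measure that the 3 QC6352 arrays of Rh30 dominate. For NR4A1 they were FAM53C (r = 0.979), AOC2 (0.976), AOC3 (0.970), the anti-proliferative gene TOB2 (0.965) and the lysosomal protein gene CD68 (0.963). Over the 17 other arrays their r with NR4A1 was 0.731 to 0.929, the highest of them for FAM53C. For NR4A2 they were RFPL4AL1 (0.987) and its paralog RFPL4A (0.971), NR4A3 (0.966), the Notch ligand gene DLL4 (0.958) and ZNF878 (0.953). Over the other 17 arrays r was 0.858 for RFPL4AL1 and 0.358 for DLL4. For NR4A3 they were MYORG (0.978), RFPL4A (0.976), USP39 (0.973), the homeobox gene OTX1 (0.973) and PLEKHO2 (0.969).

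The most opposed genes were PTPRK, a receptor phosphatase gene (r = -0.976), the repressor gene ZEB1 (-0.975) and FAF1 (-0.970) for NR4A1. They were HS2ST1 (-0.974), TRIM44 (-0.970) and the myogenin gene MYOG (-0.969) for NR4A2, and SBF2 (-0.984), GIN1 (-0.976) and the condensin gene SMC4 (-0.976) for NR4A3. MYOG differed by -2.63 log2 between QC6352 and DMSO in Rh30 and by 0.28 in Rh41. Over the other 17 arrays r of MYOG with NR4A2 was -0.522.

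The gene lists here and below were chosen with earlier results of these data known. Their counts and adjusted p-values are therefore descriptions and not independent evidence. A list of other immediate early genes, together with CREB, CRTC, SRF and MEF2 regulators, was followed beside the NR4A family. Of its 38 measured genes 26 rose with QC6352 in Rh30, 2 fell and 10 did not pass the threshold, with a median of 0.59 log2 against 0.05 over all genes. Over all genes 19.9% rose and 16.5% fell. RGS2, which restrains G protein signalling, was at 8.05 with QC6352 and 4.98 with DMSO (3.06 ± 0.12 SE, limma adjusted p = 1.04e-12, n = 3 and 3), and the stress factor ATF3 was at 10.05 with QC6352 and 7.0 with DMSO (3.05 ± 0.13, limma adjusted p = 1.31e-12). The AP-1 gene JUNB (2.12), the phosphatase DUSP1 (1.89), FOS (1.35), EGR1 (0.99) and the CREB coactivator CRTC2 (0.80) also rose. The muscle factor MEF2C (-1.41) and JUND (-0.33) were the 2 that fell. By sample name 0 of the 38 passed the limma threshold in Rh30, with 8 at an unadjusted p under 0.05, and without QC6352 replicate 2 the counts were 26 and 2.

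In Rh41 14 of the 38 rose and 0 fell, at a median of 0.16 against 0.02 over all genes, where 10.9% of genes rose and 8.8% fell. RGS2 rose by 1.24 ± 0.12 (limma adjusted p = 8.05e-07) and DUSP1 by 0.99 ± 0.11 (2.52e-06), while ATF3 differed by 0.27 ± 0.13 (0.162), FOS by 0.09 and EGR1 by 0.27, none of the last 3 past the threshold. The test of the difference between lines called 18 of the 38 lower in Rh41 and 3 higher, against 9.45% and 10.5% of all genes. By sample name 4 rose in Rh41, where the same arrays are compared with a wider pooled spread.

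With the KDM4B hairpin 10 of the 38 rose and 1 fell, at a median of 0.20 against 0.03, where 5.26% of all genes rose and 6.31% fell. RGS2 (0.94 ± 0.15 SE, limma adjusted p = 0.000373, n = 2 and 2), ATF3 (0.91 ± 0.15, 0.000551), CREB5 (0.89 ± 0.13, 0.000152) and KLF4 (0.79 ± 0.19, 0.00936) rose, and JUND fell (-0.67 ± 0.15, 0.00569). By sample name 1 of the 38 passed; these 4 arrays do not change group, but the pooled spread is wider. With KDM4C siRNA 0 rose and JUND fell (-0.70 ± 0.15, limma adjusted p = 0.0440), at a median of 0.05 against 0.02, with 7 at an unadjusted p under 0.05. Over all genes 0.266% rose and 0.192% fell there. Regrouped by sample name, 0 of the 38 passed the limma threshold there, JUND included, with 10 at an unadjusted p under 0.05.

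**Figure D4:**
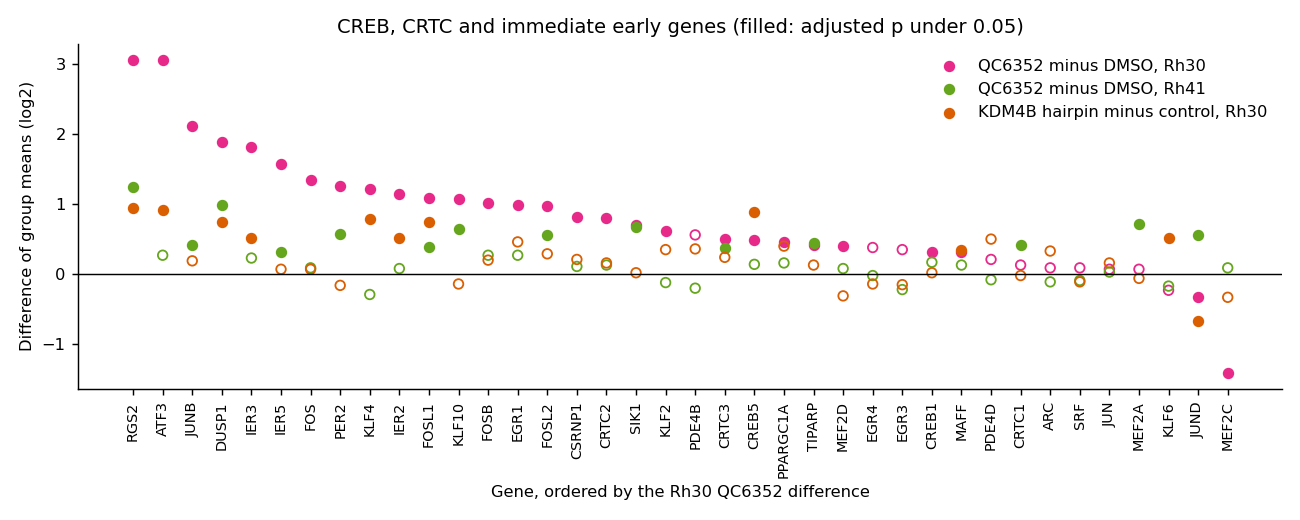
Difference of group means in log2 units (vertical axis) for the 38 measured CREB, CRTC and immediate early genes, ordered by the Rh30 QC6352 difference, in 3 comparisons (colours). Filled points passed the limma threshold; with QC6352 ATF3 lies at 3.05 in Rh30 and 0.27 in Rh41, and RGS2 at 3.06 and 1.24.

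Other nuclear receptors passed the threshold with QC6352 in both directions. Of 36 measured, 8 rose and 4 fell in Rh30 (median 0.13 log2, 0.05 over all genes), where 19.9% of all genes rose and 16.5% fell. In Rh41 3 rose and 3 fell (median -0.04, 0.02 over all genes), where 10.9% of all genes rose and 8.8% fell. The clock repressor NR1D1 rose in Rh30 (8.45 with QC6352 and 7.42 with DMSO; 1.03 ± 0.10 SE, limma adjusted p = 2.41e-07) and fell in Rh41 (7.51 with QC6352 and 7.91 with DMSO; -0.40 ± 0.10, limma adjusted p = 0.00986). NR6A1, a receptor of germ cells and embryos, fell in Rh30 (-1.05 ± 0.14, limma adjusted p = 8.9e-06) and differed by -0.06 in Rh41. The thyroid hormone receptor THRA rose in Rh41 (0.81 ± 0.12, 4.75e-05) and in Rh30 (0.39 ± 0.12, 0.0121). NR5A2 fell in Rh41 (-0.63 ± 0.19, 0.0241) and was at 3.90 with QC6352 and 3.67 with DMSO in Rh30, at background. With the KDM4B hairpin NR1D2 rose (0.69 ± 0.17, limma adjusted p = 0.00939) and the retinoic acid receptor RARA fell (-0.62 ± 0.10, 0.000484), 1 of 36 each way (median 0.01). Over all genes 5.26% rose and 6.31% fell there. With KDM4C siRNA 0 of 36 passed the limma threshold, beside 0.458% of all genes, with 4 at an unadjusted p under 0.05 (median -0.02). By sample name 0 of the 36 passed in Rh30 in the QC6352 and hairpin comparisons, with 7 and 2 at an unadjusted p under 0.05, and in Rh41 1 rose and 1 fell with QC6352.

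**Figure D5:**
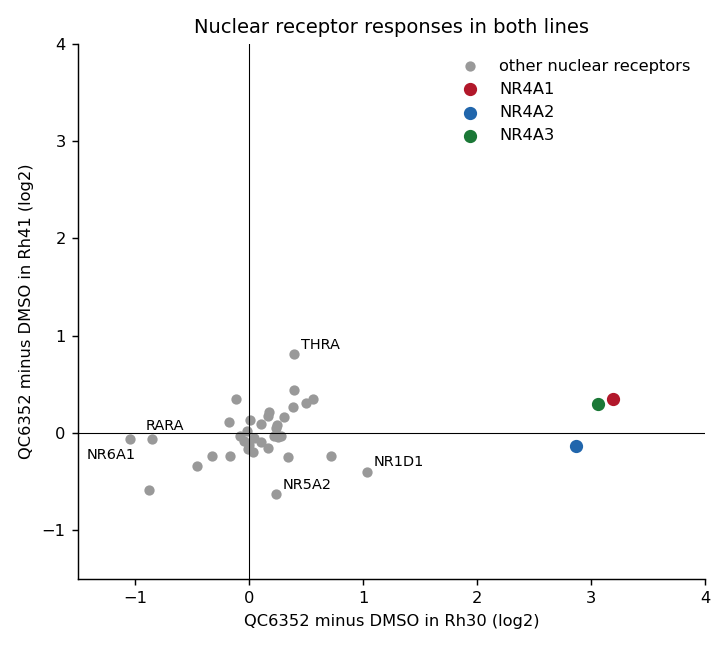
QC6352 minus DMSO in log2 units in Rh30 (horizontal axis) and Rh41 (vertical axis) for the 3 NR4A genes (colours) and the 36 other nuclear receptors measured (grey). The NR4A genes lie at 2.87 to 3.19 on the Rh30 axis, while the highest other receptor, NR1D1, lies at 1.03.

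Partners and regulators of NR4A proteins moved both ways in Rh30. Of 17 measured, 7 rose and 5 fell with QC6352 (median 0.01 against 0.05 over all genes, of which 19.9% rose and 16.5% fell). The steroid receptor coactivators NCOA1 (-1.16 ± 0.10 SE, limma adjusted p = 2.99e-08) and NCOA2 (-0.70 ± 0.12, 0.000117) fell, as did the retinoid X receptor RXRB (-0.46), and MAPK7 (ERK5), a kinase upstream of NR4A1, rose by 0.39. In Rh41 0 of 17 rose and 5 fell (median -0.16 against 0.02 over all genes, of which 10.9% rose and 8.8% fell), among them BCL2, the survival factor that NR4A1 can bind (-0.91 ± 0.14, 0.000132), and the corepressor TRIM28 (-0.57 ± 0.12, 0.00276). BCL2 differed by 0.01 in Rh30. With the KDM4B hairpin and with KDM4C siRNA 0 of 17 passed the limma threshold (medians -0.08 and -0.02), beside 11.6% and 0.458% of all genes. With KDM4C siRNA 4 had an unadjusted p under 0.05. By sample name 1 of 17 rose and 0 fell with QC6352 in Rh30, and 0 rose and 4 fell in Rh41.

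Of 16 measured genes described as NR4A targets in muscle metabolism, 3 rose and 2 fell with QC6352 in Rh30 (median 0.20), beside 19.9% and 16.5% of all genes. In Rh41 2 rose and 0 fell (median -0.03), beside 10.9% and 8.8% of all genes. MSTN, which encodes myostatin, a brake on muscle growth, fell in Rh30 to 5.90 with QC6352, against 9.40 with DMSO (-3.51 ± 0.12 SE, limma adjusted p = 1.21e-13), and differed by -0.02 ± 0.12 in Rh41 (limma adjusted p = 0.942). The uncoupling protein gene UCP2 rose in Rh30 (0.84 ± 0.09, 2.22e-07) and in Rh41 (0.30 ± 0.09, 0.0165). The muscle glycogen phosphorylase PYGM rose in Rh41 (1.42 ± 0.19, 2.98e-05) and in Rh30 (0.71 ± 0.19, 0.00609), and the muscle enolase ENO3 rose in Rh30 (0.81 ± 0.12, 2.65e-05). With the KDM4B hairpin PRKAG3 rose (0.52 ± 0.16, limma adjusted p = 0.0402) and ENO3 (-0.64 ± 0.15, 0.00743) and UCP2 (-0.41 ± 0.10, 0.0139) fell, 1 and 2 of 16 (median 0.03). Over all genes 5.26% rose and 6.31% fell there. With KDM4C siRNA MSTN rose (1.17 ± 0.14, limma adjusted p = 0.000769) and 0 fell (median -0.04), beside 0.266% and 0.192% of all genes. Without QC6352 replicate 2, 5 of 16 rose and 2 fell in Rh30. By sample name 0 of 16 passed the limma threshold with KDM4C siRNA, MSTN included, with 4 at an unadjusted p under 0.05, and 1 rose with QC6352 in Rh41. By sample name 0 rose and 1 fell with the hairpin, and 0 of 16 passed the limma threshold with QC6352 in Rh30, with 4 at an unadjusted p under 0.05.

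Of 23 measured genes described as NR4A targets in other tissues and tumour lines, 3 rose and 1 fell with QC6352 in Rh30 (median 0.11), beside 19.9% and 16.5% of all genes. In Rh41 1 rose and 0 fell (median 0.01), beside 10.9% and 8.8% of all genes. The stress gene SESN2 (1.37 ± 0.10 SE, limma adjusted p = 2.53e-09), the survivin gene BIRC5 (0.44) and IDH1 (0.39) rose and the ubiquitin ligase gene SKP2 (-0.51 ± 0.08, 4.32e-05) fell in Rh30, while cyclin D1 (CCND1) rose in Rh41 (0.37 ± 0.09, 0.00579). With the KDM4B hairpin SESN2 (0.78 ± 0.12, limma adjusted p = 0.000242), CCND1 (0.61 ± 0.11, 0.00109), SKP2 (0.49 ± 0.10, 0.0026) and ITGB1 (0.44) rose and 0 of 23 fell (median 0.14). Over all genes 5.26% rose and 6.31% fell there. With KDM4C siRNA 0 of 23 passed the limma threshold, beside 0.458% of all genes, with 3 at an unadjusted p under 0.05 (median -0.04). By sample name 1 rose with the hairpin, and 0 of 23 passed the limma threshold with QC6352 in Rh30, with 1 at an unadjusted p under 0.05. The target lists come from studies in other cells, and no NR4A binding was measured here.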

How the data were processed

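RNA of 20 Rh30 and Rh41 samples, 125 ng each, was hybridised to Affymetrix Clariom S arrays, per the labels' protocols. The authors deposited a log2 signal for each probe set, and GCOS is the tool named, per the submitters' processing notes. How signals were background-corrected, summarized and normalized is not stated in the labels, and they were used unchanged. Of 24351 probe sets, 17709 carry 1 gene symbol, and the probe set with the highest mean represented a gene, which left 17687 genes. The tests came from 1 fit of 8 group means by title to 20 arrays with limma 3.58.1 (R 4.3.3; eBayes, 12 residual degrees of freedom), adjusted by Benjamini-Hochberg over all genes at a threshold of 0.05. The fit was checked on simulated data with the same spread of a gene in every group. That check cannot show the effect of unequal spreads or of conflicting labels. Differences are the first group minus the second, and intervals are 95%. Nothing says that replicates came from separate cultures, so p-values measure the spread between arrays, and the number of arrays limits the precision. Background is the median of 23 control probe sets per array.

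The members and the 5 gene lists were chosen with earlier results of these data known. Named genes were the members, the 2 largest changes per list and comparison among genes past the threshold whose groups did not overlap, the 5 most alike and 3 most opposed genes per member, and KDM4 genes. JUNB, FOS, EGR1, CRTC2, MEF2C, CREB5, KLF4, RXRB, MAPK7, BIRC5, IDH1 and ITGB1 were added after their values were seen. The alternatives were the groups by sample name, quantile normalization, median centring, a filter on the lowest 40% of genes, eBayes with trend and robust, a fit of the compared groups alone, the replicate block, and leaving out each array.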

Additional observations from a re-analysis of the deposited data

Results flagged for a closer look

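Among the list genes picked as the largest changes of a comparison, 15 differed between the lines in their response to QC6352 by limma's test of the difference itself (Rh41 response minus Rh30 response, log2, adjusted p over all genes, n = 3 in each of the 4 groups). The NR4A genes were left out because they were picked on this difference. Many of the genes below were picked for a large QC6352 change in 1 line on the same arrays, which favours a difference between lines. Their adjusted p-values are therefore descriptions. Over all genes limma called 20% in this comparison. Lower in Rh41 were ATF3 (-2.79, adjusted p = 5.77e-09), RGS2 (-1.82, 6.46e-07), NR1D1 (-1.43, 1.65e-06), SESN2 (-1.28, 2.95e-06), ENO3 (-1.0, 0.000345), BCL2 (-0.92, 0.00268), DUSP1 (-0.90, 0.000336), NR5A2 (-0.87, 0.0296) and UCP2 (-0.54, 0.00331). Higher in Rh41 were MSTN (3.49, 3.31e-10), NR6A1 (0.99, 0.0017), JUND (0.89, 0.000996), NCOA1 (0.86, 0.000237), RARA (0.80, 8.92e-05) and CCND1 (0.52, 0.00638). JUND and NR1D1 passed the threshold in both lines with opposite signs. The other genes picked in the same way were NR1D2, THRA, NCOA2, TRIM28, PRKAG3, PYGM and SKP2. They did not pass the threshold for the difference between lines (limma adjusted p = 0.0508 to 0.564).

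The Rh30 side of each of these differences rests on the titles of arrays whose labels contradict each other.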

How the results depend on the processing

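Of 240 alternative values for the NR4A genes 218 kept their direction and, where tested, their side of the threshold, or moved by less than the spread between replicates. Part of this count was fixed in advance, so it does not measure robustness. In the comparisons without a test, the filter, the eBayes settings, the fit of the compared groups alone and the replicate block leave the difference of means unchanged. So does a run without the arrays titled siRNA. Neither knockdown comparison passed the threshold for any NR4A gene under any alternative run (lowest adjusted p = 0.119, for NR4A1 with the KDM4B hairpin and the lowest 40% of genes left out, a filter that removed NR4A2 and NR4A3).

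With groups by sample name the KDM4C siRNA differences reversed to 1.27, 1.27 and 1.28 for NR4A1, NR4A2 and NR4A3. QC6352 in Rh30 moved to 0.19, 0.23 and 0.28, DMSO in Rh41 minus Rh30 to 0.63, -0.02 and -0.64, and the difference of responses to 0.16, -0.36 and 0.02. Genes called by sample name were 725 (hairpin), 0 (siRNA), 89 (QC6352 in Rh30), 1537 (QC6352 in Rh41) and 762 (difference of responses), against 2047, 81, 6427, 3479 and 3534 by title. DMSO in Rh41 minus Rh30 was 0.10, -0.57 and -1.32 after quantile normalization and 0.10, -0.61 and -1.35 after median centring.

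The siRNA comparison called 341 genes with the lowest 40% of genes left out, 438 with trend and robust eBayes and 0 with the compared groups fitted alone, where the hairpin comparison called 826. With the replicate block the hairpin comparison called 563 genes and the siRNA comparison 38. After centring on the group mean, same-numbered arrays had correlations of 0.0858 (hairpin), -0.215 (siRNA), 0.0615 to 0.26 (QC6352 in Rh30) and -0.19 to -0.0593 (QC6352 in Rh41). The same number was the best match for both hairpin pairs and for QC6352 pairs 1 and 3 in Rh30, and for no other pair. With 2 or 3 centred arrays per group this cannot settle the pairing. The main fit used no pairs, and the block served as an alternative. The block changed no call for an NR4A gene, and it was not run for DMSO between the lines.

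Leaving out 1 array at a time gave, for NR4A1, NR4A2 and NR4A3, 0.26 to 0.56, 0.17 to 0.45 and -0.01 to 0.32 with the hairpin (1039 to 1557 genes called) and -0.17 to -0.02, -0.37 to 0.14 and -0.26 to -0.06 with the siRNA (8 to 1789 called). NR4A2 turned to 0.14 without KDM4C siRNA replicate 1, which also gave the 1789. The ranges were 3.03 to 3.45, 2.66 to 3.10 and 2.94 to 3.29 for QC6352 in Rh30 (5767 to 6119 called), 0.29 to 0.40, -0.18 to -0.06 and 0.21 to 0.38 in Rh41 (2646 to 2776), 0.30 to 0.42, -0.43 to -0.23 and -1.17 to -1.0 for DMSO between the lines (9317 to 9684), and -3.10 to -2.68, -3.23 to -2.79 and -2.99 to -2.64 for the difference of responses (2880 to 3399).

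Each member has 1 probe set, so the use of every probe set would give no other value for it, and no such run was made. Levels near background limit what the arrays can show for NR4A2 outside the 3 QC6352 arrays of Rh30 and for NR4A3 in Rh41. With DMSO in Rh30 all 3 members lay below the highest background control probe set. The cause of the changes by sample name is the regrouping of the 10 arrays; the causes of the others were not tested.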
